A study of Homo sapiens with 3 samples.

Results

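The genes described here are antisense RNA genes, those whose symbol ends in -AS1, together with the sense gene that each is named after. A probe set is a group of short probes that together read a transcript, or several that share sequence, and its signal is a brightness on a linear scale. The members are the -AS1 genes with a probe set that the platform annotation maps to exactly 1 such symbol and with a deposited signal of 100 or more on at least 1 of 3 arrays. There were 137 of them among 706 -AS1 genes on the array, and 10940 of all 19775 genes met the same signal rule. Because measured signal chose the members, their levels are a description, and a member that passed on 1 array alone had to be lower on the others. Such members numbered 19, of which 11 passed with stable Set8b alone, 2 with wild-type Set8b alone and 6 with the vector alone, while 97 passed on all 3 arrays. The members nearest the threshold inside it were ST20-AS1 (103.3 with stable Set8b), MIDEAS-AS1 (106.2 with vector) and HSD11B1-AS1 (108.2 with stable Set8b), as their highest deposited signals. Just outside it lay CBR3-AS1 at 99.8, VASH1-AS1 at 99.7 and TNFRSF14-AS1 at 99.6, all with stable Set8b.

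The cells were U2OS, an established human osteosarcoma line, transduced with a pMSCV retrovirus and harvested after 5 days. The first construct carried Set8_deltaPIP2, a stable form of Set8b that resists the CRL4-Cdt2 ubiquitin ligase, the second carried Wt-Set8b, and the third was the empty pMSCV vector. Set8 (gene KMT5A) adds a single methyl group to lysine 20 of histone H4, and the comparisons ask how gene expression differs when the enzyme is added or cannot be degraded. Each construct was read on 1 array of total RNA, so differences between constructs have no replicate check and could not be tested. The labels do not say whether the cells were a clone or a pool, and Set8 was added from a retrovirus to cells that keep their own KMT5A gene.

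Antisense genes are transcribed from the strand opposite to a protein-coding gene. Many start near the promoter of their partner and run away from it or back across its first exon, and others lie inside or at the far end of the partner. Some act as long non-coding RNAs on chromatin or on the stability of messenger RNAs, many are short-lived products cleared by the nuclear exosome, and for most no function is known.

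On the whole arrays, the median deposited signal was 41.7 with stable Set8b, 42.8 with wild-type Set8b and 38.6 with vector. After quantile normalization, which gives the 3 arrays the same distribution, 4 probe sets read KMT5A and differed by -0.76 to 0.90 log2 between stable Set8b and vector. Whether these probes can read the transduced gene was not analysed here, and they do not check the labels. Of 8 mesenchymal markers 6 reached a signal of 100, with summed signals from 28340 to 36520 over the arrays, and COL1A2 and ALPL stayed below 100. Epithelial markers reached 100 in 3 of 7 cases (summed signal 510 to 735.4), leukocyte markers in 2 of 6 on the array (269.4 to 382.3) and endothelial markers in 1 of 3 (157.9 to 235.3). The brightest epithelial marker, EPCAM, read 169.1 with stable Set8b, 424.8 with wild-type Set8b and 431.3 with vector. KRT14 (77.63, 110.9 and 52.64) and CLDN4 (131.5, 147.9 and 78.2) went the other way, higher with stable Set8b than with vector. In the same order, the leukocyte markers CD3D and CD79A read 200.2, 75.95 and 107.1, and 117.2, 183.9 and 99.67. PTPRC, the common leukocyte antigen, was at 33.04 or below on every array. Poly-A spike-in controls, RNAs added before labelling, had a median signal ratio of 0.463 for the stable Set8b over the vector array and 1.01 over the wild-type array. Whether any of these differences has a part in the results below was not tested. In bulk RNA, fewer cells of a type and less RNA per cell cannot be told apart.

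The -AS1 genes were dim. Their highest deposited signals ran from 103.3 to 5201.2 with a median of 266.4, against 583.45 for all genes under the same rule. Signals at or below 500 made up 75.9% of the members and 44.9% of all genes, and 10 members reached 1000. A single probe set stood for each gene, the brightest one. Of these, 117 were plain _at probe sets, and 15 ended in _s_at, 3 in _x_at and 2 in _a_at, endings that mark probes shared by several transcripts. Which strand each probe reads was not analysed here, and the name of each gene is that of the annotation. Of the sense partners, 126 had a probe set of their own symbol and 100 of these reached a signal of 100. The 11 members without such a partner included EFCAB2-AS1, SLC16A1-AS1 and CCDC144NL-AS1.

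The brightest member was TMEM132D-AS1, named after the gene of a transmembrane protein. It had normalized signals of 5395 with stable Set8b, 3540 with wild-type Set8b and 3413 with vector. It was highest with stable Set8b, 0.66 log2 above vector, and a second probe set gave 0.65. TMEM132D itself did not exceed a deposited signal of 37.7. CCDC144NL-AS1 read 1490, 2773 and 2914 in the same order of arrays. It was lowest with stable Set8b, and its 4 probe sets differed from vector by -0.97 to -0.63 log2. EPB41L4A-AS1, a host of a small nucleolar RNA, read 2859, 2272 and 1754. Its brightest probe set was 0.71 higher with stable Set8b than with vector, but its other probe set differed by -0.37, so its direction depends on the probe set.

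OIP5-AS1, a cytoplasmic long non-coding RNA also called cyrano, read 1906 with stable Set8b, 2704 with wild-type Set8b and 2579 with vector. All 3 of its probe sets were lower with stable Set8b than with vector, at -0.44, -0.34 and -0.18 log2. Its partner OIP5, a subunit of the Mis18 complex that marks centromeres, read 910.9, 1794 and 2330, a difference of -1.35. PRR34-AS1 read 1812, 2266 and 1854, with stable Set8b close to vector (-0.03). TTC28-AS1 read 1021, 1425 and 1659 and was lowest with stable Set8b (-0.70; other probe set -0.60). FGD5-AS1 read 967.5, 1405 and 1450 and was lowest there as well (-0.58), whereas FGD5, an activator of the GTPase Cdc42, stayed at or below a deposited signal of 55.4. SERTAD4-AS1 read 1054, 1120 and 1205 (-0.19). Of these 8 brightest members, 6 were lower and 2 higher with stable Set8b than with vector, and none differed by 2-fold.

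In the comparison of stable Set8b with vector, 15 members were at least 2-fold lower (10.9%), against 4.94% of all genes under the same signal rule. The members at least 2-fold higher numbered 11 (8.03%), against 5.81% of all genes. The members' median difference was -0.18 log2, with 54 above and 83 below 0, whereas the median of all genes was -0.01 and that of the 100 measured sense partners 0.00. Their middle quartiles ran from -0.59 to 0.30 and their range from -4.22 to 3.85. The spread over members was wider (SD 0.94 log2 over 137 genes) than over all genes (0.68 over 10940), and the members were also dimmer. Among genes with a highest deposited signal of 100 to 500, a band added after seeing the data, 10.6% of 104 members and 5.85% of all 4907 genes were lower, and 9.62% and 7.54% were higher. In this band the SD was 1.01 log2 for members and 0.75 for all genes, and the medians were -0.13 and -0.0008. The share of members higher lay closer to the background than the share lower at both signal ranges, with no test of either.

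**Figure D1:**
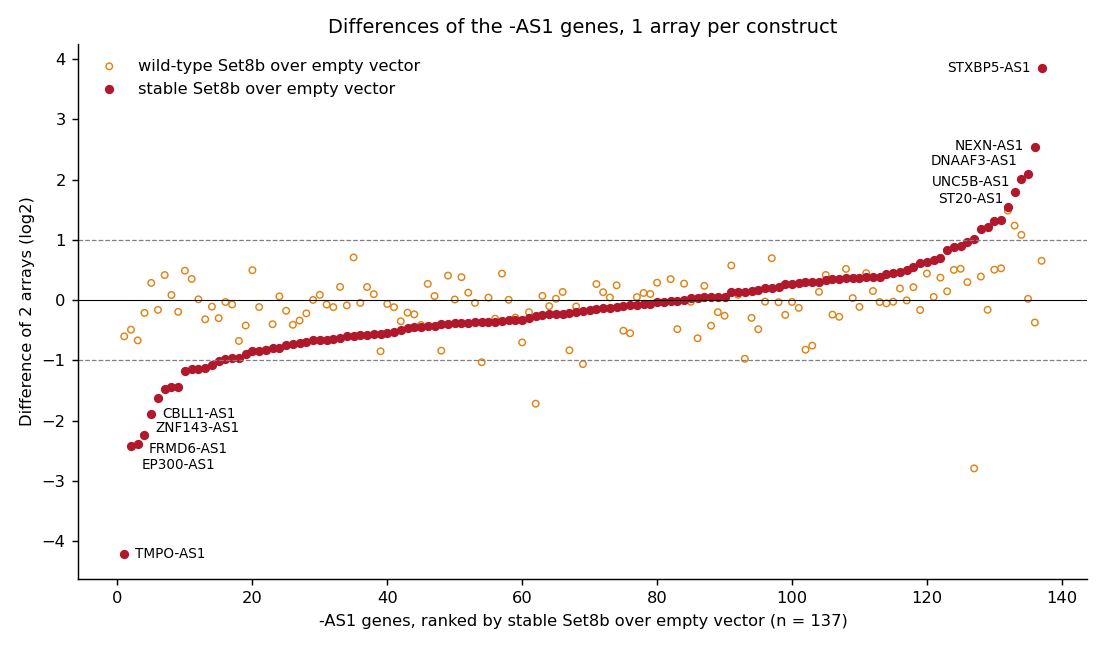
Each of the 137 -AS1 genes is placed along the horizontal axis by its rank for stable Set8b over vector, and the vertical axis is the log2 difference of 2 arrays. Filled red points compare stable Set8b with vector and open orange points compare wild-type Set8b with the same vector array, and dashed lines mark 2-fold; 15 red points lie at or below -1 and 11 at or above 1, against 4 and 3 orange points.

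TMPO-AS1 stood at the low end. TMPO encodes lamina-associated polypeptide 2, a protein of the inner nuclear membrane and nucleoplasm that binds lamins, and TMPO-AS1 starts on the opposite strand near its promoter. The antisense gene had normalized signals of 4.80 with stable Set8b, 94.88 with wild-type Set8b and 143.9 with vector. It was near the bottom of the scale with stable Set8b and differed from vector by -4.22 log2. With the dim side set to a signal of 50, a floor for dim probe sets, the difference was -1.53. TMPO read 1008, 2908 and 2987 on the same arrays, and its difference of -1.57 was close to those of its other measured probe sets (-1.49 and -1.56). Both genes of this pair were thus lowest with stable Set8b, and for both the wild-type array lay within 2-fold of vector.

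Promoter windows were taken for the pairs on opposite strands with starts within 1000 bases whose -AS1 gene differed most between stable Set8b and vector. These were TMPO, STXBP5, NEXN and ZNF143, and the STXBP5 windows are not printed. Those of the TMPO pair, in which both genes were low with stable Set8b, come first. All windows are RefSeq sequences of GRCh38.p14, each running from 250 bases before to 50 after an annotated start, 5′ to 3′ on the gene's own strand. Capitals mark the motifs searched on both strands, which were CCAAT (the CCAAT box), TATAAA (the TATA box), GGGCGG (the GC box), TTTGAA (the cell cycle homology element) and TTTCCCGC (an E2F-type site). TMPO-AS1 lies on the minus strand at chr12:98516177-98516476 and TMPO on the plus strand at chr12:98515340-98515639.
TMPO-AS1: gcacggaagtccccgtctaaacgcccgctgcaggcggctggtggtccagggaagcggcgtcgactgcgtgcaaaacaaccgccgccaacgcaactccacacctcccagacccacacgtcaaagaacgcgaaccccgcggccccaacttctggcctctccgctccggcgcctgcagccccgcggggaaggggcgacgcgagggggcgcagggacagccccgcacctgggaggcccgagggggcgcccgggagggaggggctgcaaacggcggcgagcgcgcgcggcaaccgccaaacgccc
TMPO: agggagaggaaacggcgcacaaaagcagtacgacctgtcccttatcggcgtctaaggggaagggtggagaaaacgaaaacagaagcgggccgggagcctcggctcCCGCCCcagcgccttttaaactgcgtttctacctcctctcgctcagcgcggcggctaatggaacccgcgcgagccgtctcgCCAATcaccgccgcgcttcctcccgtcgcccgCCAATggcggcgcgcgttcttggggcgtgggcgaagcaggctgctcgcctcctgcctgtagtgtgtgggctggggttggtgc
The starts were 636 bases apart, with the transcripts overlapping at their 5′ ends. The TMPO window held 2 CCAAT matches and 1 GGGCGG match, and the TMPO-AS1 window held none of the 5 motifs. Both were rich in G and C, at 65.3% for TMPO and 73.3% for TMPO-AS1. A match is a string of letters and not evidence that a factor binds.

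Next in size were 4 members whose partners stayed within 2-fold of vector. EP300-AS1, near the gene of the histone acetyltransferase p300, read 88.11 with stable Set8b, 335.9 with wild-type Set8b and 471.6 with vector (-2.42 against vector). EP300 itself read 367, 435.6 and 442 (-0.27), so only the antisense gene passed 2-fold. RefSeq places EP300-AS1 on the opposite strand without overlap. ZNF143-AS1, which begins at the promoter of the zinc finger transcription factor ZNF143, read 74.52, 304.9 and 353 (-2.24). ZNF143 read 529.1, 537.2 and 521.8 (0.02), with no array apart from the others.

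The ZNF143 pair was chosen by the same rule as the TMPO pair. Its antisense gene was low and its sense gene level. ZNF143-AS1 is on the minus strand at chr11:9460649-9460948 and ZNF143 on the plus strand at chr11:9460762-9461061, in the same build.
ZNF143-AS1: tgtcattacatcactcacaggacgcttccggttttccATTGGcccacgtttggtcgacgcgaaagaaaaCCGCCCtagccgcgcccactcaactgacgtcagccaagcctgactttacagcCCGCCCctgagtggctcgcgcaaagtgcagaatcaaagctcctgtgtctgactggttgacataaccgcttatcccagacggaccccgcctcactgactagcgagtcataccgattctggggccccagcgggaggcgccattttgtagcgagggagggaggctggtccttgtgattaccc
ZNF143: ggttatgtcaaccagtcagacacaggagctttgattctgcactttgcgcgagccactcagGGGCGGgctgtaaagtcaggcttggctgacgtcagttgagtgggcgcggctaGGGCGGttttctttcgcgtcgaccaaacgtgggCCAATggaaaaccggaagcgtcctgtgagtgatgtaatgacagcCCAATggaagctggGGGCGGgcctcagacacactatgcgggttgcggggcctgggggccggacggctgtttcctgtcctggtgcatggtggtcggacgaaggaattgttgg
Here the genes diverge from starts 314 bases apart, and their windows share 187 bases, read from opposite strands. The ZNF143-AS1 window held 1 CCAAT and 2 GGGCGG matches and the ZNF143 window 2 CCAAT and 3 GGGCGG matches.

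FRMD6-AS1 overlaps FRMD6, a FERM-domain protein linked to the Hippo pathway, on the opposite strand. It read 34.43 with stable Set8b, 113.9 with wild-type Set8b and 180.9 with vector (-2.39, and -1.86 with the dim side set to 50). FRMD6 went the other way, at 3472, 1619 and 1956 (0.83). CBLL1-AS1 starts 4 bases from CBLL1, which encodes the ubiquitin ligase HAKAI, and read 35.93, 162.9 and 133.6 (-1.89, and -1.42 with the dim side set to 50). CBLL1 differed from it in staying level, at 180.1, 135.7 and 159.4 (0.18).

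PXN-AS1 and PXN were the 1 measured pair past 2-fold in opposite directions between stable Set8b and vector. PXN encodes paxillin, an adaptor of focal adhesions. PXN-AS1 read 212 with stable Set8b, 502.5 with wild-type Set8b and 574.9 with vector (-1.44). PXN read 1037, 543.6 and 234.5 (2.15), highest with stable Set8b and intermediate with wild-type Set8b. The antisense gene did not follow that middle step, since its wild-type signal was close to that of vector (-0.19).

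TIAM1-AS1, beside the gene of a Rac exchange factor, read 73.9, 275 and 206 (-1.48), while TIAM1 was level at 1063, 1111 and 1040 (0.03). ATXN7L3-AS1, beside the gene of a subunit of the SAGA deubiquitinase module, read 49.26, 142.7 and 134.5 (-1.45), while ATXN7L3 differed by -0.20. SPEN-AS1 read 301.6, 669 and 662.6 (-1.14), and SPEN, a transcriptional repressor, was lower by less, at 546.4, 928.7 and 781.2 (-0.52). All 3 antisense genes were lowest with stable Set8b, with the other arrays close together or wild-type Set8b the highest. ATP2A1-AS1 read 334.1, 941.2 and 737.3 (-1.14), and MSC-AS1 read 58.73, 187.3 and 133.4 (-1.18). Their partners, the muscle calcium pump gene ATP2A1 and the transcription factor gene MSC, did not exceed deposited signals of 38.9 and 4.8, so these were antisense genes without a measured sense gene. EFCAB2-AS1 read 51.88, 143.4 and 160.4 (-1.63), but its second probe set gave -0.44. The last 3 were C10orf95-AS1 (-1.13), DMTF1-AS1 (-1.07) and FOXP4-AS1 (-1.01), and DMTF1, a Myb-like transcription factor, stood at 0.55 and FOXP4, a forkhead factor, at 0.11.

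**Figure D2:**
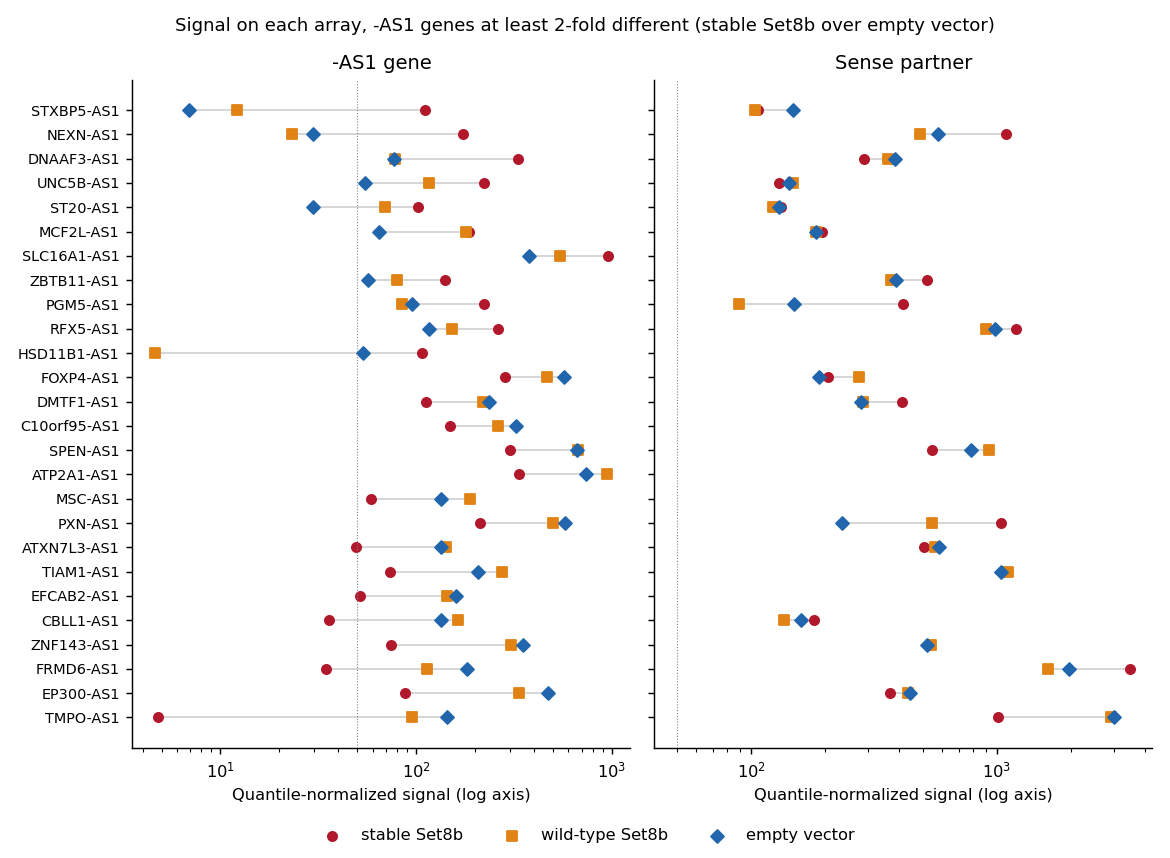
Normalized signals on a log axis are drawn for each called -AS1 gene (left) and its sense partner (right) on the 3 arrays, 1 point per array. The dotted line marks a signal of 50, and a row is blank on the right where the partner had no probe set of its own or stayed below 100; the -AS1 genes were selected on stable Set8b against vector, which fixes the order of these 2 points, whereas the partners were not, and PXN (1037 against 234.5) and TMPO (1008 against 2987) are among the partners whose points lie far apart.

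Among the 11 higher members, STXBP5-AS1 had the largest difference from vector. STXBP5 encodes tomosyn, an inhibitor of vesicle fusion. The antisense gene read 111.1 with stable Set8b, 12.13 with wild-type Set8b and 6.90 with vector, so it was above 50 on the stable Set8b array alone (3.85, and 1.15 with the dim side set to 50). Its mean over all 3 probe sets, 2 of them below 100, was 1.62. STXBP5 read 106.6, 104 and 147.9 (-0.47), highest with vector. The STXBP5-AS1 window held 2 CCAAT matches, with 55.3% G and C, and the STXBP5 window 1 GGGCGG match, with 71.0%.

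NEXN-AS1 read 174.5 with stable Set8b, 23.1 with wild-type Set8b and 29.88 with vector (2.55, and 1.80 with the dim sides set to 50). NEXN, which encodes the actin-binding protein nexilin, read 1087, 485.1 and 575.9 (0.92), and its other probe set gave 1.38. Both genes of the pair were highest with stable Set8b. The windows of this pair were chosen by the same rule as those of TMPO. NEXN-AS1 is on the minus strand at chr1:77889490-77889789, and NEXN on the plus strand at chr1:77888374-77888673.
NEXN-AS1: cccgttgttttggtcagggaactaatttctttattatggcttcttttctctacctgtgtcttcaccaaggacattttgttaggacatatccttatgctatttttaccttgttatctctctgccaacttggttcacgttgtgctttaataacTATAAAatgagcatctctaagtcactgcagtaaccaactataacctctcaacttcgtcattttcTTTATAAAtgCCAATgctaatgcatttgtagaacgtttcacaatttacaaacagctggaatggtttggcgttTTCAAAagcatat
NEXN: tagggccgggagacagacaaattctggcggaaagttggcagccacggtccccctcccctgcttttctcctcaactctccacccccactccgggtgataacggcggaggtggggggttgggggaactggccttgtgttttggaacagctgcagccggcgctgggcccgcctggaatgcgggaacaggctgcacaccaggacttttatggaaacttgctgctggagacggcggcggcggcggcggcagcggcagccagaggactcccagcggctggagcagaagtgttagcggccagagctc
The starts are 915 bases apart, with the transcripts overlapping at their 5′ ends. The NEXN-AS1 window held 3 TATAAA matches, 1 CCAAT and 1 TTTGAA, with 36.0% G and C and 5 CpG dinucleotides. The TATAAA matches within TTTATAAA overlap and lie on opposite strands, so they are not separate sites. The NEXN window held none of the 5 motifs, with 64.7% G and C and 19 CpG dinucleotides.

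DNAAF3-AS1, beside the gene of a dynein arm assembly factor, read 331.1 with stable Set8b, 78.37 with wild-type Set8b and 77.18 with vector (2.10). DNAAF3 went slightly the other way, at 288.7, 362.1 and 385.5 (-0.42). UNC5B-AS1, beside the gene of a netrin receptor, read 221.5, 115.8 and 54.67 (2.02), with wild-type Set8b between the other arrays, while UNC5B was at -0.14. ST20-AS1 read 102.7, 69.68 and 29.56 in the same order of height (1.80, and 1.04 with the dim side set to 50), and ST20 was at 0.02. MCF2L-AS1 read 187.1, 180.2 and 64.35 (1.54). It was as high with wild-type as with stable Set8b, while its partner MCF2L was at 0.08.

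SLC16A1-AS1, named after the gene of the lactate transporter MCT1, was the brightest of the higher members at 953.6, 545.5 and 378.1 (1.33; other measured probe set 0.77). ZBTB11-AS1 read 140.7, 80.28 and 56.55 (1.31), with ZBTB11 at 0.42. PGM5-AS1 read 221.6, 85.13 and 95.11 (1.22), but its second probe set read 78.13, 117.1 and 84.64 (-0.12). The partner PGM5, a protein of adherens junctions and muscle related to phosphoglucomutase, was also highest with stable Set8b, at 414.5, 88.99 and 149.2 (1.47). RFX5-AS1 stood at 1.18, with RFX5, a regulator of MHC class II genes, at 0.28, and HSD11B1-AS1 at 1.01. Of the 11 higher members 7 reached 100 with stable Set8b alone, so the membership rule itself required them to be lower on the other arrays. Of the 15 lower members 1, TMPO-AS1, reached 100 with vector alone. Others, such as EP300-AS1, CBLL1-AS1 and FRMD6-AS1, reached 100 on both other arrays but not with stable Set8b. For these too, the rule required a higher signal on at least 1 other array. Further lower members, such as PXN-AS1 and ATP2A1-AS1, were above 100 on all 3 arrays. When membership was instead set by a mean deposited signal of 100 or more over the arrays, an alternative added after seeing the data, 6 of 120 members were higher (5%, all genes 4.87%) and 14 lower (11.7%, all genes 4.53%).

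Stable Set8b over wild-type Set8b shares the stable Set8b array with the comparison above, so its values are set beside it and are no separate support. At least 2-fold lower were 14 members (10.2%, all genes 4.97%) and higher 9 (6.57%, all genes 4.95%). The median of the members was -0.14 log2, with 59 above and 78 below 0, and that of all genes -0.02. In the band of 100 to 500, 10.6% of members and 6.17% of all genes were lower and 7.69% and 6.66% higher. With a mean deposited signal of 100 or more, 10% and 4.36% were lower and 2.5% and 3.92% higher, so the share of higher members was below the background there. TMPO-AS1 differed by -3.62 from wild-type Set8b (-0.92 with the dim side set to 50), CBLL1-AS1 by -2.18, ZNF143-AS1 by -2.03, EP300-AS1 by -1.93 and TIAM1-AS1 by -1.90. TMPO was at -1.53 and the other partners named here within 2-fold. Among the members not yet described, KMT2E-AS1 read 109.8 with stable Set8b, 277.8 with wild-type Set8b and 196.8 with vector (-1.34 against wild type). MIF-AS1 read 55.75, 137.1 and 83.83 (-1.30), beside MIF, a cytokine gene, at 23070, 26020 and 22790. For both, wild-type Set8b was the highest array and vector lay between.

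The 9 higher members included NEXN-AS1 (2.92), DNAAF3-AS1 (2.08) and PGM5-AS1 (1.38), which were described above, and STXBP5-AS1 (3.20, and 1.15 with the dim side set to 50). Of the 9, 7 reached 100 with stable Set8b alone, so the membership rule itself required them to be lower with wild-type Set8b. Of the 14 lower members 2 reached 100 on 1 array alone. HSD11B1-AS1 read 107.5 with stable Set8b, 4.63 with wild-type Set8b and 53.43 with vector, so its difference of 3.80 shrank to 1.10 with the dim side set to 50. TMEM147-AS1 read 459.4, 168.2 and 553.5 (1.45), low with wild-type Set8b alone, while TMEM147, a subunit of a translocon complex, read 7616, 6731 and 6037. RHPN1-AS1 (1.11), KIAA1614-AS1 (1.12) and AP1G2-AS1 (1.06) were also lowest with wild-type Set8b, and with vector they were within 2-fold of stable Set8b. AP1G2, a clathrin adaptor subunit, went the other way at 327.3, 675.3 and 603.6 (-1.04). In this comparison 3 pairs were past 2-fold the same way, TMPO (-1.53), NEXN (1.16) and PGM5 (2.22) with their antisense genes, and 2 in opposite ways, FRMD6 (1.10) and AP1G2.

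Wild-type Set8b over vector, which shares the vector array with the first comparison and the wild-type array with the second, had few members past 2-fold. Higher were 3 (2.19%, all genes 1.02%) and lower 4 (2.92%, all genes 0.585%), and the members' median was -0.03 log2 beside 0.01 for all genes. In the band of 100 to 500 the shares were 2.88% higher (all genes 2.06%) and 2.88% lower (all genes 1.12%), and with a mean of 100 or more 1.67% higher (all genes 0.59%) and 1.67% lower (all genes 0.271%), each of them 2 or 3 genes. The higher ones were MCF2L-AS1 (1.49), ST20-AS1 (1.24, and 0.48 with the dim side set to 50) and UNC5B-AS1 (1.08). The lower ones were HSD11B1-AS1 (-2.79, and -0.10 with the dim sides set to 50), TMEM147-AS1 (-1.72), CARD8-AS1 (-1.06) and ALOX12-AS1 (-1.03). Of the 3 higher members 1, and of the 4 lower members 2, reached 100 on 1 array alone. CARD8-AS1 read 155.9, 84.46 and 176.3, but its mean over its 2 probe sets, 1 of them below 100, was 0.44, the opposite direction. Its partner CARD8, an inflammasome protein, was level between wild-type Set8b and vector (0.05). The spread over members was also narrower here, with an SD of 0.50 log2 against 0.94 for each comparison with stable Set8b, as it was for all genes (0.36 against 0.68 and 0.66).

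**Figure D3:**
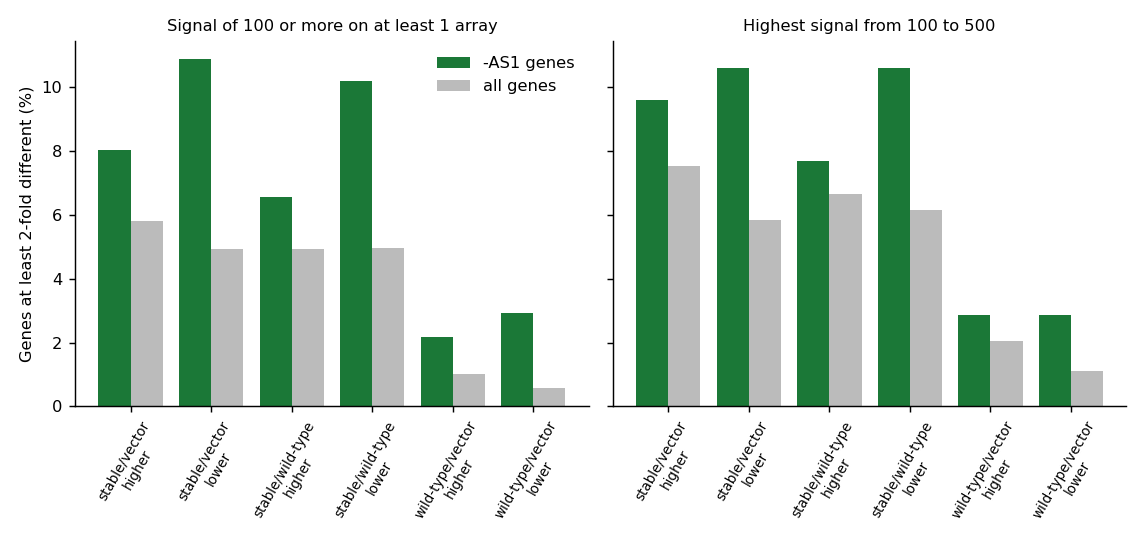
Bars give the percent of -AS1 genes and of all genes at least 2-fold higher or lower in each of the 3 comparisons, on an axis from 0. The left panel holds the 137 -AS1 genes and all 10940 genes under the same signal rule. The right panel holds the 104 -AS1 genes and 4907 genes with a highest signal from 100 to 500. On the left, the bars for lower -AS1 genes reach 10.9% for stable Set8b over vector and 10.2% over wild-type Set8b, beside 4.94% and 4.97% of all genes.

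The sense partners were counted by the same rule, and their shares lay near those of all genes. Of the 100 measured partners, 7 passed 2-fold upward (all genes 5.81%) and 3 downward (all genes 4.94%) for stable Set8b over vector. Over wild-type Set8b the counts were 6 (all genes 4.95%) and 6 (all genes 4.97%), and between wild-type Set8b and vector 1 (all genes 1.02%) and 0 (all genes 0.585%). The difference between partners and -AS1 genes was not tested. PXN (2.15), PAPLN (1.69), PGM5 (1.47) and MYLK (1.46) were the highest against vector, and MYLK, the myosin light chain kinase gene, had an antisense gene at -0.79. LHX4 (-1.67), a LIM homeodomain factor, TMPO (-1.57) and OIP5 (-1.35) were the 3 lower partners, with antisense genes at -0.37, -4.22 and -0.44. Among the 15 lower members 11 had a measured partner, and 2 of these partners passed 2-fold, TMPO down and PXN up. Among the 11 higher members 9 had one, and 1 passed 2-fold, PGM5.

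Across the 100 pairs with both genes measured, the antisense and sense genes lay on the same side of 0 in 54 pairs when stable Set8b was set against vector, in 57 when it was set against wild-type Set8b, and in 39 when wild-type Set8b was set against vector. For stable Set8b over vector, both genes were above 0 in 23 pairs and both below in 31. The antisense gene alone was above in 19 pairs and alone below in 27. Across these genes, which share their arrays and are not independent replicates, Pearson's r was 0.09, 0.17 and -0.12 in the order of the comparisons, and Spearman's rho 0.08, 0.10 and -0.15. These correlations are weak and are given as a description only.

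**Figure D4:**
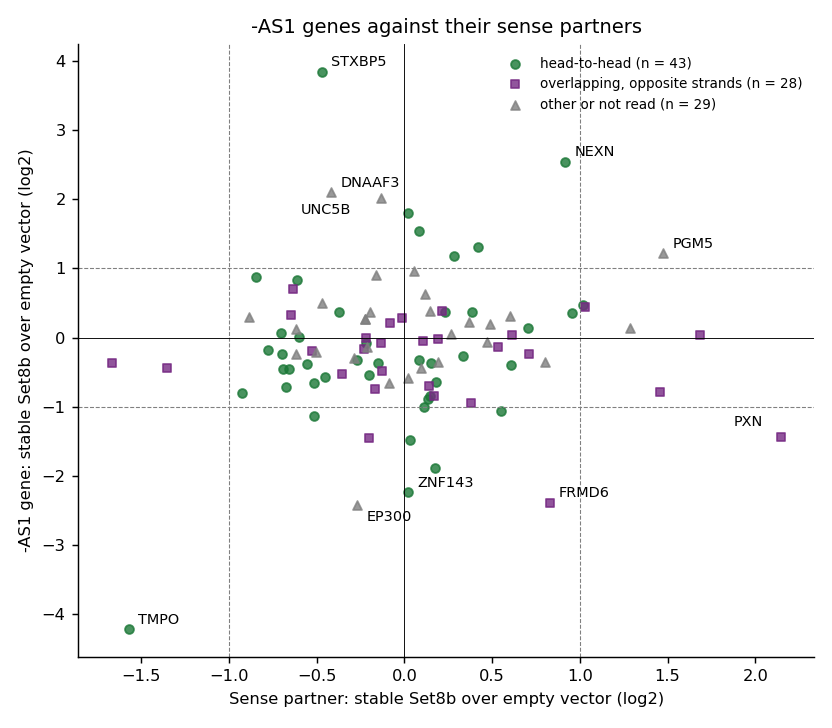
Each point is 1 of the 100 pairs with both genes measured, with the sense partner's log2 difference of stable Set8b over vector on the horizontal axis and that of the -AS1 gene on the vertical axis. Shape and colour give the arrangement of the genes, and dashed lines mark 2-fold; TMPO (-1.57 and -4.22) and PGM5 (1.47 and 1.22) are the pairs past 2-fold the same way, and PXN (2.15 and -1.44) the pair past it in opposite ways.

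The pairs were then split by gene arrangement in RefSeq (GRCh38.p14), to which 136 of the 137 members matched by gene identifier. Head-to-head pairs, on opposite strands with starts within 1000 bases, numbered 56, with a median of 179.5 bases between starts (4 to 981). Of the 43 with both genes measured, 25 lay on the same side of 0 in the first comparison (58.1%), 29 in the second (67.4%) and 17 in the third (39.5%), with Pearson's r at 0.30, 0.35 and -0.18 and Spearman's rho at 0.19, 0.23 and -0.22. The pairs whose spans overlap on opposite strands with more distant starts numbered 38, with 28 measured. Of these, 14 (50%), 15 (53.6%) and 7 (25%) lay on the same side, with r at -0.26, -0.15 and -0.11 and rho at -0.12, -0.04 and -0.14. For another 36 pairs, 26 of them measured, the strand of at least 1 gene was not read, and 13, 11 and 12 lay on the same side. The remaining pairs were 4 on opposite strands without overlap and 3 with a gene not matched in the table. No test of the difference between these arrangements was made. Head-to-head pairs supplied 8 of the 15 lower and 6 of the 11 higher members for stable Set8b over vector, and 56 of all 137, of which 36 had no strand read.

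A promoter window was found for 108 members and 119 partners, and the whole table held 27305 genes. No signal rule was applied to that whole set, so it is not matched in signal to the members. Windows of the members had a median of 64.7% G and C and 25 CpG dinucleotides, those of the partners 67.3% and 24, and those of all genes 58.3% and 14. GGGCGG was found in 58.3% of the members' windows, 66.4% of the partners' and 44.6% of all. TATAAA was found in 7.41%, 7.56% and 12% in the same order, CCAAT in 34.3%, 36.1% and 35.7%, TTTGAA in 9.26%, 10.1% and 15.4%, and TTTCCCGC in 2.78%, 2.52% and 1.66%. The 13 lower members with a window had a median of 69.3% G and C and 32 CpG dinucleotides, and the 9 higher ones 55.3% and 7. Single members varied within both groups. ZNF143-AS1, a lower member, had 58.0% and 21 CpG dinucleotides, and STXBP5-AS1, the highest member, had 55.3% and 23. These are descriptions of small groups that were chosen by signal.

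Probe sets of the same gene gave the only repeat reading on these arrays. Of the 137 members, 22 had several probe sets at 100 or more, and all of a member's probe sets lay on the same side of 0 in 16 for stable Set8b over vector, 11 over wild-type Set8b and 13 for wild-type Set8b over vector. The SD between probe sets of a member was 0.40, 0.44 and 0.32 log2, beside 0.38, 0.41 and 0.35 over 4604 genes. Of the members called for stable Set8b over vector, 14 of the 15 lower and 9 of the 11 higher were read by 1 probe set at 100 or more. The other 3, EFCAB2-AS1, PGM5-AS1 and SLC16A1-AS1, were past 2-fold by 1 of their 2 measured probe sets and within it by the other. This spread covers probe noise and not that between cultures.

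Genes of nuclear RNA surveillance and of double-stranded RNA binding or processing were read from lists. Whether their products act on the -AS1 RNAs was not tested. Of 22 genes of nuclear RNA surveillance, 21 were measured. At 2-fold, 0 were higher with stable Set8b than with vector (all genes 5.81%) and 1 was lower (all genes 4.94%), the exosome subunit EXOSC8 (798.9, 1576 and 1780; -1.16). Their median was -0.08, with 5 above and 16 below 0, and EXOSC9, another exosome ring subunit, was at -0.97. Of 15 genes that bind or process double-stranded RNA, 13 were measured, with 1 higher and 1 lower beside the same shares of all genes. TLR3, an endosomal sensor, was higher at 270.7, 126.2 and 129.5 (1.06), and IFIH1, the cytosolic sensor MDA5, was lower at 51.13, 104.6 and 107.1 (-1.07). Those within 2-fold of vector included the sensor RIGI (0.91), the nuclease DICER1 (-0.78) and the helicase DHX9 (-0.75).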

How the data were processed

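Total RNA of U2OS cells was extracted with Trizol, labelled with biotin and hybridised to 1 Affymetrix array per construct, per the labels' protocols. Each array came with 54675 deposited intensity values, on a linear scale, and the program behind these values was not given in the sources used here. On every array the values had a trimmed mean of 250.0 (2% trimmed at each end).

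The 62 control probe sets were left out, the arrays were quantile normalized (their log2 medians had spanned 0.146), and log2 was taken after setting values below the 20th percentile to that signal, 7.7. Calculations ran in Python 3.11.15 (pandas 2.3.3, numpy 2.4.6), and figures were drawn with matplotlib 3.10.9. Of 54613 probe sets, 41091 had 1 symbol, 1801 several and 11721 none. The brightest probe set by mean deposited signal stood for each gene. A gene was called at a 2-fold difference of 2 arrays, with no test. The steps were tested on simulated data.

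Members and gene lists were chosen with earlier results of these data known. Named were the 8 brightest members, up to 12 called members a direction for stable Set8b and 6 for wild-type Set8b over vector, their partners, pairs with both genes called, 3 members on each side of the threshold, KMT5A and called genes of the lists. C10orf95-AS1, DMTF1-AS1 and FOXP4-AS1, beyond that limit of 12, were added so that every called member is named. The partners PAPLN, MYLK and LHX4 and the list genes EXOSC9, RIGI, DICER1 and DHX9 were chosen after their values were seen. So were the markers KRT14, CLDN4, CD3D and CD79A. Alternatives were the deposited values, centred arrays, no floor, a floor at 50, membership at 200, the mean over probe sets, no _x_at or _s_at probe sets, and 1.5-fold. Chosen after seeing the data were a signal band of 100 to 500, a mean signal of 100 or more, and a member's other probe sets.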

Additional observations from a re-analysis of the deposited data

How the results depend on the processing

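No paired analysis was possible because each construct had 1 array. The counts of called members and of same-side pairs stayed within 1.5 times under the deposited values, centred arrays, no floor, a floor at 50, and without _x_at or _s_at probe sets. Without those probe sets only 123 members and 63 measured pairs were left, beside 137 and 100, so these counts have unlike totals. Centring moved the median of all genes to -0.12 for stable Set8b over vector and to -0.13 for wild-type Set8b over vector. With membership at 200 (89 members), 5 were higher (5.62%, all genes 5.09%) and 9 lower (10.1%, 4.35%) for stable Set8b over vector, 3 (3.37%, 4.12%) and 7 (7.87%, 4.23%) over wild-type Set8b, and 1 and 1 (1.12% each; 0.452% and 0.154%) for wild-type Set8b over vector, with 32, 35 and 21 same-side pairs of 57. At 1.5-fold the counts were 19 (13.9%, all genes 13.9%) and 35 (25.5%, 14%), 24 (17.5%, 13.2%) and 30 (21.9%, 14.5%), and 6 (4.38%, 5.27%) and 16 (11.7%, 3.73%), so the share higher was at or below that of all genes for stable and for wild-type Set8b over vector. With the mean over probe sets, 1 member was lower for wild-type Set8b over vector, and CARD8-AS1, with 1 of its 2 probe sets below 100, turned to 0.44 there. With a mean deposited signal of 100 or more, 6 were higher for stable Set8b over vector, 3 were higher over wild-type Set8b, and 2 were lower for wild-type Set8b over vector. These settings keep fewer genes, lower the bar, or read other probe sets, and no further cause was tested. With a floor at 50, 14 of 56 values of called members moved by more than the probe-set spread, all of them with a side under 50. The dim signals of most members limit every fold given, and 1 array per construct leaves the spread between cultures unknown.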

Other observations

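Other classes of non-coding genes named after a neighbour were read by the same signal rule. Of 75 genes with a symbol ending in -AS2 to -AS9, 9 were measured, with a median of -0.30 log2 for stable Set8b over vector. FAM131B-AS2 was higher, at 1657 with stable Set8b, 1300 with wild-type Set8b and 800.6 with vector (1.05), and FGF14-AS2 lower, at 48.08, 105.9 and 109.7 (-1.19). Of 197 divergent transcripts with a symbol ending in -DT, which start beside a promoter and run away from it, 46 were measured, with a median of -0.08. ITGB1-DT (1.54) was the 1 higher and TOX-DT (-1.09) the 1 lower gene at 2-fold. Of 31 intronic or overlapping transcripts (-IT1, -OT1), 7 were measured, with a median of 0.20, and AGPAT4-IT1 (1.04) was the 1 gene past 2-fold. Over all genes in this comparison the median was -0.01, with 5.81% at least 2-fold higher and 4.94% lower.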
